A study of Homo sapiens with 6 samples.

Results

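The Krüppel-like factor (KLF) genes described here are KLF2, KLF3, KLF4, KLF5, KLF6, KLF7, KLF9, KLF10, KLF11 and KLF13, 10 of the 60624 genes in the expression table. They were selected on their measured TPM in the siCEP20 and siCTR libraries, so their levels and changes between the groups are given as a description. Their p-values are not printed. A call or an interval given for a KLF gene uses the same values as the selection and is likewise a description, not a test. RNA was sequenced from A549, an established human lung adenocarcinoma line labelled as non-small cell lung cancer, in 3 siCTR libraries that received a control small interfering RNA (siRNA) and in 3 siCEP20 libraries that received siRNA against CEP20, a centrosomal and ciliary-base protein, each for 3 days. All 6 libraries come from the same line and no library is untransfected. The study's methods name more than one CEP20 siRNA and the labels do not say which was used, so effects of the sequence of the siRNA cannot be told apart from effects of CEP20. Nothing in the labels says that replicates were separate cultures, and the spread between them may be technical. A field of the labels also names a plasmid transfection, which the methods do not describe for these samples, and labels and methods differ on the culture medium and the RNA extraction.

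KLF proteins are transcription factors that bind GC-rich and CACCC-type DNA boxes through a conserved set of zinc fingers at the carboxyl end, while their amino ends differ and recruit activators or repressors. Several of the genes are immediate-early or stress-responsive, with short-lived mRNAs. KLF2 is best known from endothelium, where shear stress induces it through the kinases MEKK2/3, MEK5 and ERK5 and the MEF2 factors, and from the lung, for which it was first named lung Krüppel-like factor.

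Expression was deposited as TPM, a transcript abundance corrected for transcript length and library total. Groups were compared with limma on log2(TPM + 1) over the 14778 genes that averaged 1 TPM or more. A called gene had a fold change over 1.5 or under 0.67 together with an adjusted p-value under 0.05. Sequencing depth is unknown from TPM. The number of genes at 1 TPM or more ran from 14429 to 14600 in siCTR and from 14851 to 14987 in siCEP20, and over the tested genes the log2 fold change had a median of 0.13. CEP20 itself was at 29.2, 30.5 and 35.1 TPM in siCTR and at 16.2, 15.3 and 17.3 TPM in siCEP20, a log2 fold change of -0.92 ± 0.09 (SE, adjusted p = 0.000205, limma). The keratins KRT7, KRT8 and KRT18 marked the epithelial line in every library, and the 6 epithelial markers summed to 7029 to 7333 TPM in siCTR and 8474 to 8709 TPM in siCEP20. EPCAM was low, at 0.834 to 1.24 TPM in siCTR and 3.01 to 3.85 TPM in siCEP20. With CDH1 it was 1 of the 2 of this list called higher, beside 11.2% of all tested genes. All 6 epithelial markers were higher at an adjusted p under 0.05 by limma, beside 30.2% of all tested genes. The 8 endothelial markers summed to between 0.0651 and 0.437 TPM in siCTR and between 0.221 and 0.321 TPM in siCEP20, with EMCN at 0 in all 6 libraries. The 6 blood markers summed to 10.4 to 12.6 TPM in siCTR and 9.19 to 11.7 TPM in siCEP20, most of it CD14, with CD3E at 0. The 6 fibroblast markers summed to 5.39 to 6.15 TPM in siCTR and 17.7 to 20.2 TPM in siCEP20, nearly all COL1A1, with COL1A2 and DCN at 0 throughout. The part of EPCAM, CDH1 and COL1A1 in the results below was not tested, and in bulk RNA fewer cells of a type and less RNA per cell cannot be told apart.

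KLF2 changed most among the 10 genes. KLF2 (ENSG00000127528) is a gene of 3 exons on the plus strand of chromosome 19 (chr19:16324826-16328685, with all coordinates from hg38). Its level was 9.41, 7.45 and 11.2 TPM in the siCTR libraries and 42.5, 44.8 and 47.5 TPM in the siCEP20 libraries. The lowest siCEP20 value stood far above the highest siCTR value, and the mean went from 9.35 ± 1.87 to 44.9 ± 2.50 TPM (SD). The log2 fold change was 2.16 ± 0.13 (SE, n = 3 per group), with a 95% interval from 1.87 to 2.46, and 2.03 above the median of all genes. KLF2 was at rank 10 of the 14778 tested genes by log2 fold change.

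KLF6 and KLF4 are, like KLF2, broadly acting factors of the epithelium and vessel wall that respond to injury, and KLF4 is also one of the reprogramming factors. KLF6 (chr10:3775996-3785281) was at 39.6, 33.7 and 49.7 TPM in siCTR and at 87.7, 89.6 and 94.2 TPM in siCEP20, with a log2 fold change of 1.14 ± 0.12. KLF4 (chr9:107484852-107490482) was at 15.9, 13.8 and 14.2 TPM in siCTR and at 23.4, 23.8 and 26.3 TPM in siCEP20, with a log2 fold change of 0.71 ± 0.09. The groups did not overlap for either gene. KLF5 (chr13:73054976-73077541), a factor of proliferating epithelium, was at 40.1, 47.2 and 52.7 TPM in siCTR and at 73.2, 75.5 and 85.4 TPM in siCEP20 (log2 fold change 0.74 ± 0.11). KLF7 (chr2:207074137-207173856), known from neurons, was at 14.7, 14.4 and 13.6 TPM in siCTR and at 29.3, 21.6 and 25.3 TPM in siCEP20 (log2 fold change 0.79 ± 0.11). KLF7 was the gene whose siCEP20 libraries differed most from each other relative to their mean among those called.

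KLF10 and KLF11 are the TGF-beta-inducible early genes, repressors that recruit the SIN3A corepressor, as do KLF9, KLF13 and KLF16. KLF10 (chr8:102648784-102655725) was the most abundant of the family, at 102, 115 and 117 TPM in siCTR and at 196, 207 and 193 TPM in siCEP20 (log2 fold change 0.83 ± 0.07). KLF11 (chr2:10042849-10054836) was at 7.92, 8.21 and 8.59 TPM in siCTR and at 16.2, 14.8 and 15.1 TPM in siCEP20 (log2 fold change 0.82 ± 0.08). The siCEP20 values of both genes lay above all of their siCTR values.

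KLF13, KLF3 and KLF9 were not called. KLF13 (chr15:31326835-31435665), which acts on T-cell chemokine expression, was at 41.4, 44.7 and 45.7 TPM in siCTR and at 63.5, 65.7 and 60.7 TPM in siCEP20. Its log2 fold change was 0.52 ± 0.07 which lay under the fold of 1.5, and KLF4, at 0.71, was the called gene nearest to that fold. KLF3 (chr4:38664197-38701517), a repressor that binds CtBP corepressors, was at 12.1, 11.9 and 13.6 TPM in siCTR and at 15.8, 15.5 and 18.04 TPM in siCEP20 (log2 fold change 0.37 ± 0.09). The groups did not overlap for KLF13 or KLF3. KLF9 (chr9:70384604-70414657), a glucocorticoid-responsive gene, was at 3.48, 3.00 and 3.70 TPM in siCTR and at 3.20, 3.29 and 4.18 TPM in siCEP20, and here the groups overlapped. Its log2 fold change was 0.05 ± 0.14, with a 95% interval from -0.27 to 0.37.

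**Figure D1:**
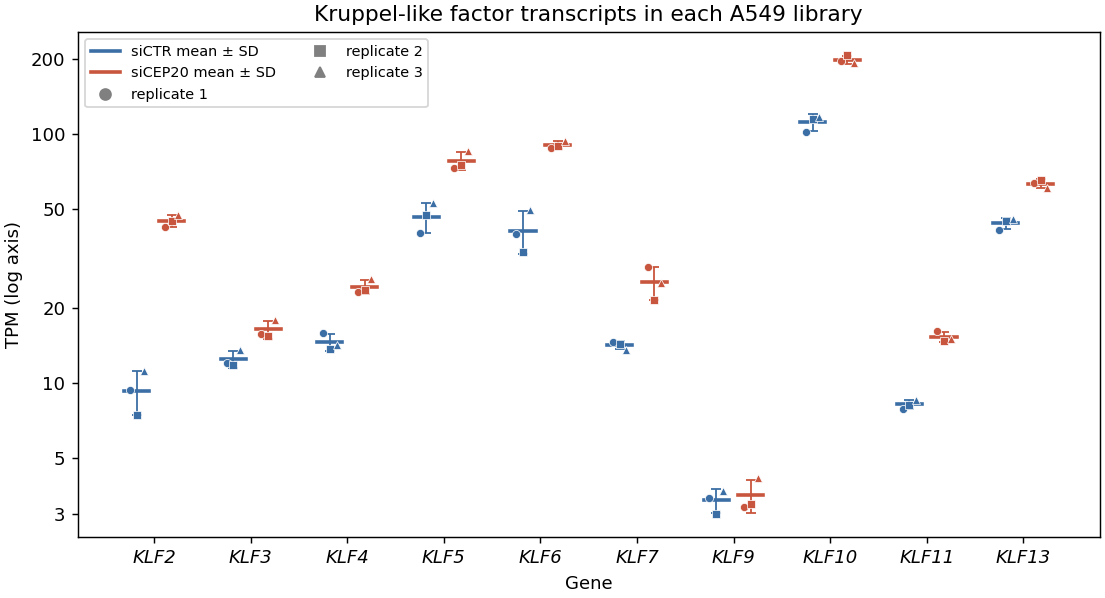
TPM (log axis) of the 10 KLF genes in each library, with siCTR in blue and siCEP20 in red. Points are replicates, horizontal bars are means and vertical bars are SD (n = 3). The groups are apart for every gene but KLF9, and the gap is widest for KLF2, from 9.35 ± 1.87 to 44.9 ± 2.50 TPM.

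In all, 7 of the 10 genes were called higher and 0 were called lower, beside 11.2% of all tested genes called higher and 4.61% called lower. Every siCEP20 value exceeded every siCTR value for 9 of the 10, and for 0 of them every one was lower, beside 38.4% and 17% of all tested genes. Since the genes were selected on this comparison, nothing is read from these shares. The median log2 fold change of the 10 genes was 0.76, and without KLF2 it was 0.74. All 10 genes passed the filter on low TPM.

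Of the 8 other KLF genes, 2 had enough signal to be tested, and 0 were called by limma, with 1 higher at an unadjusted p under 0.05. At that unadjusted p, 5293 of the 14778 tested genes were higher and 2335 lower. KLF16 was at 45.7, 40.8 and 47.7 TPM in siCTR and at 44.2, 46.6 and 41.7 TPM in siCEP20, a log2 fold change of -0.02 ± 0.08 (adjusted p = 0.89), with overlapping groups at a level close to that of KLF13 and KLF5 in siCTR. KLF12, a repressor that binds CtBP, was at 1.08, 1.18 and 1.25 TPM in siCTR and at 2.05, 2.12 and 1.62 TPM in siCEP20. Its log2 fold change of 0.43 ± 0.16 did not pass the test (adjusted p = 0.0596), although the values of the groups do not overlap. KLF1, the erythroid factor, and KLF18 were listed at 0 in all libraries, and KLF8, KLF14, KLF15 and KLF17 stayed under 0.12 TPM in each library. Of the 9 Sp factors, the sister family that binds GC boxes with a like set of zinc fingers, 6 were tested and 1 was called higher. The share called higher was 11.2% over all tested genes. SP9 was at 1.86 to 2.41 TPM in siCTR and 3.61 to 4.58 TPM in siCEP20, a log2 fold change of 0.72 ± 0.14 (adjusted p = 0.00441), and the median log2 fold change of the 6 was 0.42.

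**Figure D2:**
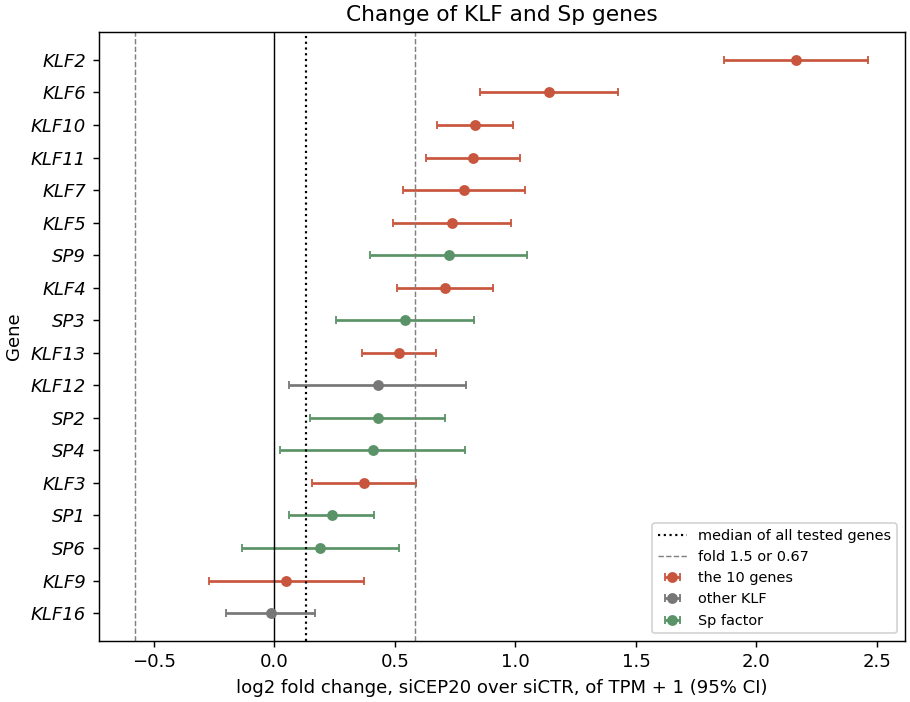
Log2 fold change of TPM + 1, siCEP20 over siCTR, for the tested KLF and Sp genes, with 95% intervals. The 10 genes described are in red, KLF12 and KLF16 in grey and Sp factors in green. KLF2 stands apart at 2.16, with KLF6 next at 1.14, while KLF9 and KLF16 lie by 0.

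The order of levels changed with the treatment. In siCTR the order over the family was KLF10, KLF5, KLF16, KLF13, KLF6, KLF4, KLF7, KLF3, KLF2, KLF11, KLF9 and KLF12. The ranges of KLF5, KLF16, KLF13 and KLF6 overlapped from each to the next, as did those of KLF4 and KLF7 and those of KLF2 and KLF11. In siCEP20 the order was KLF10, KLF6, KLF5, KLF13, KLF2, KLF16, KLF7, KLF4, KLF3, KLF11, KLF9 and KLF12, with overlap only between KLF2 and KLF16, KLF7 and KLF4, and KLF3 and KLF11. KLF2 thus moved from rank 9 to rank 5.

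The summed level of the 10 genes was 286, 299 and 331 TPM in siCTR and 551, 562 and 570 TPM in siCEP20. KLF10 held 36.5% ± 1.69 of this sum in siCTR and 35.4% ± 1.52 in siCEP20 (SD, n = 3), so its share kept within the spread of the replicates. The share of KLF2 went from 3.05% ± 0.492 to 8.01% ± 0.311 and that of KLF6 from 13.4% ± 1.93 to 16.1% ± 0.343. The shares of KLF13, from 14.4% ± 0.552 to 11.3% ± 0.556, and of KLF3, from 4.10% ± 0.131 to 2.94% ± 0.207, were lower, although both genes had higher TPM. Within groups, siCTR replicate 3 held the highest value for 8 of the 10 genes and siCEP20 replicate 3 for 6 of the 10.

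**Figure D3:**
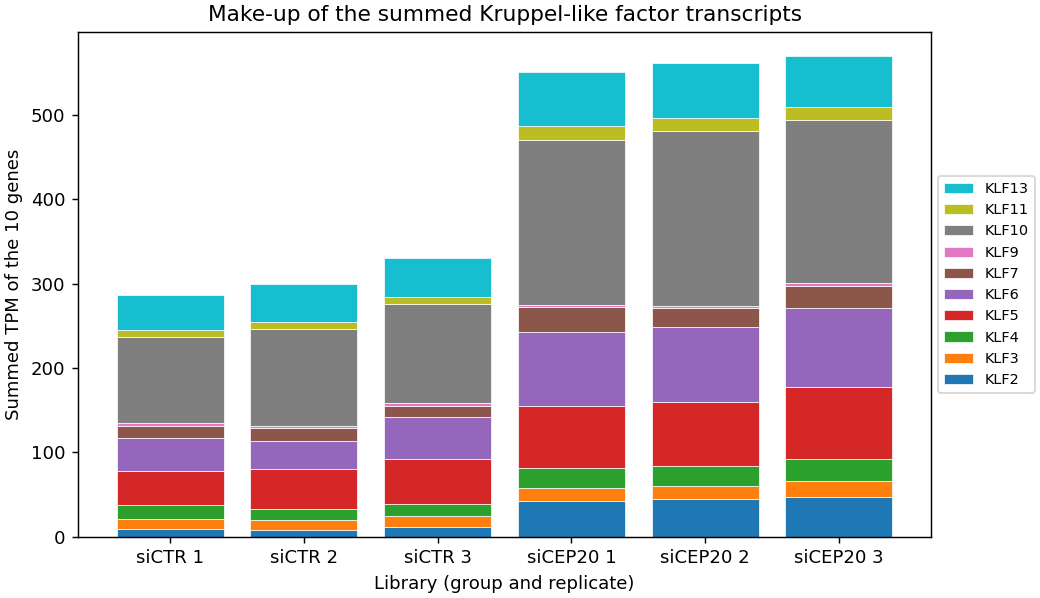
Summed TPM of the 10 KLF genes in each library, stacked by gene. The siCTR columns reach 286 to 331 TPM and the siCEP20 columns 551 to 570 TPM, with KLF10 the largest part in all of them and KLF2 the part that grows most in proportion.

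Sequence upstream of the genes was taken from RefSeq (GRCh38.p14), whose table matched 8 of the 10 genes, all but KLF3 and KLF10. For 3 of these, KLF2, KLF13 and KLF9, the 250 bases before the start lie wholly outside the annotated gene, and these are printed to set the gene with the largest change beside a gene under the fold of 1.5 and the gene whose groups overlapped. The windows of KLF4, KLF5, KLF6, KLF7 and KLF11 run into another annotated transcript of the gene and were not used. Capitals mark matches, on either strand, to GGGCGG, the GC box of Sp and KLF factors, to CACCC, the box named for KLF factors, and to the core of a MEF2 site, searched as CTA, any 4 bases and TAG, which reads alike on both strands. In KLF13 the CACCC match shares a base with a GC box. The windows lie at chr19:16324576-16324825 (KLF2, plus strand), chr15:31326585-31326834 (KLF13, plus strand) and chr9:70414658-70414907 (KLF9, minus strand).
KLF2: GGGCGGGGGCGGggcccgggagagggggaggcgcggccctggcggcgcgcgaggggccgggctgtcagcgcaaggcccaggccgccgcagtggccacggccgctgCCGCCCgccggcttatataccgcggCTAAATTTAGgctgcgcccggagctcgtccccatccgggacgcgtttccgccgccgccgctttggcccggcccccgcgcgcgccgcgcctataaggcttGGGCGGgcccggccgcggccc
KLF13: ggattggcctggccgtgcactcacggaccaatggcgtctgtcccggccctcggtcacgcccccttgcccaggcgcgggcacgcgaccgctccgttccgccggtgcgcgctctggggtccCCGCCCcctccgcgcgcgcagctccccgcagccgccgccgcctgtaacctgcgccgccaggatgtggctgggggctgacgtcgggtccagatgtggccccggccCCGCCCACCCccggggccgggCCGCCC
KLF9: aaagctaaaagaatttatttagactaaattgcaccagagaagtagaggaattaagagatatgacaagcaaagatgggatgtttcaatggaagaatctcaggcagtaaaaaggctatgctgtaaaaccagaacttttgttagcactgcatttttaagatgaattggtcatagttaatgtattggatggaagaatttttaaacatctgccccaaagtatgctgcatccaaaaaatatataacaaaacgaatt

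The KLF2 window held 4 matches to GGGCGG, 0 to CACCC and 1 to the MEF2 core, which begins 120 bases before the start. The KLF13 window held 3 matches to GGGCGG and 1 to CACCC, and the KLF9 window held no match to any of the motifs. Among 35116 promoters of the same length, 42.6% held GGGCGG, 54.7% held CACCC and 2.36% held the MEF2 core. G and C made up 80.0% of the KLF2 window, 78.8% of the KLF13 window and 32.4% of the KLF9 window, against a median of 58.0% over all promoters. A match describes the letters in this window and is neither a bound site nor a cause.

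Some features of the messages were not used in the selection. ATTTA is the core of AU-rich elements that mark short-lived mRNAs. On the canonical GENCODE transcript every one of the 10 genes had at least 2 copies in its 3′ UTR, with a median of 5.5. The 12238 tested protein-coding genes with a 3′ UTR had a median of 2 copies, so at least 2 copies are common, and 27.9% had none. The count ran from 2 in KLF4 to 20 in KLF7, with 4 in KLF2. The 3′ UTRs had a median of 2750 bases against 1288 for the tested genes, though that of KLF4 was shorter, at 899 bases. Per kb the median was 2.32 copies against 1.65, and KLF6 was close to the latter at 1.69. KLF13, at 0.893 per kb, was the lowest and lay under the median of the tested genes. KLF9, whose groups overlapped, had 8 copies.

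Of the annotated genes that overlap the 10 genes, or start within 5 kb of them, ENSG00000289987 at KLF4 and ENSG00000288755 at KLF6 had no TPM values. Those with values stayed under 7 TPM. KLF2-DT, which starts 312 bases from KLF2 on the opposite strand, was listed at 0 in all libraries, and KLF3-AS1 did not exceed 0.313 TPM. Inside KLF7 on the same strand, KLF7-IT1 was at 0.687, 0.427 and 0.700 TPM in siCTR and at 2.80, 0.841 and 1.30 TPM in siCEP20. Its log2 fold change of 0.66 did not pass the test (adjusted p = 0.0889), and reads from it and from KLF7 may not be separable. The unnamed long noncoding gene ENSG00000283959, which starts 516 bases from KLF10 on the opposite strand, was at 3.32 to 5.10 TPM in siCTR and 6.01 to 6.71 TPM in siCEP20 (log2 fold change 0.44, adjusted p = 0.0457), under the fold of 1.5.

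The 5 protein-coding genes outside the KLF genes whose log2(TPM + 1) profile over the 6 libraries, centred on its mean, lay nearest to that of KLF2 were RHOB, DIO2, CSF3, TPM4 and C17orf97. Their distances ran from 0.316 for RHOB to 0.539 for C17orf97. RHOB, an immediate-early small GTPase, was at 120, 108 and 126 TPM in siCTR and at 454, 469 and 483 TPM in siCEP20. DIO2, the deiodinase that activates thyroid hormone, was at 2.56, 2.61 and 4.49 TPM in siCTR and at 15.5, 15.9 and 15.7 TPM in siCEP20. As the profile of KLF2 is mainly its difference between the groups, these are genes with a like difference: log2 fold changes ran from 1.80 for C17orf97 to 2.15 for CSF3. Among the KLF genes, KLF6 was the nearest to KLF2, at rank 72 of the protein-coding genes by this distance.

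The genes around the KLF factors were counted in lists, 71 tested genes of 93 in all. By limma, 19 of them were called higher and 0 lower, beside 11.2% and 4.61% of all tested genes. At an adjusted p under 0.05 without the fold threshold, 39 were higher and 1 lower, beside 30.2% and 13.2% of all tested genes. At an unadjusted p under 0.05 the numbers were 47 and 2, beside 5293 and 2335 of the 14778 tested genes. The lists were chosen with results of these data known, so their counts are a description. The list of the kinases and MEF2 factors that induce KLF2 and KLF4 in endothelium also holds the class IIa deacetylases that repress MEF2. Of its 11 genes 9 were tested, and 3 of them were called higher. Its median log2 fold change was 0.52. The kinase gene MAP3K2, which encodes MEKK2, was at 7.23, 8.96 and 9.28 TPM in siCTR and at 16.2, 17.4 and 15.4 TPM in siCEP20 (log2 fold change 0.87 ± 0.11, adjusted p = 0.000552). The transcription factor genes MEF2A (0.65 ± 0.09, adjusted p = 0.000998) and MEF2D (0.70 ± 0.10, adjusted p = 0.000924) were also called higher on the log2 fold change scale. The kinase genes MAP3K3 (MEKK3), MAP2K5 (MEK5) and MAPK7 (ERK5) were not called, at log2 fold changes of -0.02, 0.52 and 0.29 (adjusted p = 0.847, 0.00152 and 0.0533). Neither were the deacetylase genes HDAC4, HDAC5 and HDAC7, at -0.21, 0.27 and 0.52 (adjusted p = 0.223, 0.11 and 0.00195). MEF2C was under 0.01 TPM in all libraries. Of the 4 genes of the cerebral cavernous malformation complex, which restrains MEKK3, 0 were called. All 4 had higher values at an adjusted p under 0.05 by limma and lay under the fold of 1.5, with a median log2 fold change of 0.40, and CCM2 and PDCD10 stood at 0.26 and 0.40.

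Genes that KLF2 is known to raise in endothelium or lymphocytes had 4 of 10 tested and 1 called higher. Of all tested genes, 11.2% were called higher and 4.61% lower. THBD, the thrombomodulin of the anticoagulant surface, rose from 7.13, 6.57 and 7.74 TPM to 20.1, 21.0 and 21.2 TPM (log2 fold change 1.42 ± 0.09, adjusted p = 3.87e-05). CDKN1A, the p21 cell cycle inhibitor, went the other way at a fold under the threshold, from 346, 348 and 352 TPM to 241, 251 and 251 TPM (log2 fold change -0.49 ± 0.05, adjusted p = 0.000158). S1PR1 was listed at 0 in all libraries, and NOS3 stayed under 0.4 TPM. CDKN1A, S1PR1, NOS3, MEF2C and the kinase and deacetylase genes not called were chosen for naming after their values were seen.

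Genes that KLF2 is known to lower in endothelium had 6 of 10 tested, and 5 were called higher and 0 lower, beside the same shares of 11.2% and 4.61%. The vasoconstrictor gene EDN1 rose from 61.0, 57.3 and 69.3 TPM to 109, 109 and 119 TPM (log2 fold change 0.84 ± 0.08, adjusted p = 0.000182). F3, the tissue factor that starts coagulation, rose from 1.75, 2.33 and 1.71 TPM to 5.37, 4.24 and 4.61 TPM (log2 fold change 0.97 ± 0.15, adjusted p = 0.00132). The cytokine gene IL6 rose by 0.64 ± 0.15 on the log2 scale (adjusted p = 0.0113). The chemokine gene CCL2 varied widely in siCTR, from 185 to 359 TPM, and was at 407 to 587 TPM in siCEP20 (log2 fold change 0.94 ± 0.23, adjusted p = 0.0112). The median of the 6 was 0.74, against 0.13 for all tested genes.

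The glucocorticoid list, the receptor and its early targets, among which KLF9 is counted in lung cells, had 11 of 12 tested, with 5 called higher and 0 lower, beside 11.2% and 4.61% of all tested genes. They were SGK1, an ion transport kinase (1.00 ± 0.08, adjusted p = 7.42e-05), TSC22D3, the glucocorticoid-induced leucine zipper (0.89 ± 0.07, adjusted p = 6.49e-05), CEBPD (0.81 ± 0.06, adjusted p = 7.33e-05), ERRFI1 (0.67 ± 0.07, adjusted p = 0.00026) and the receptor gene NR3C1 (0.59 ± 0.09, adjusted p = 0.00148), all as log2 fold changes. FKBP5, a defining target of the receptor, was at 7.94, 7.69 and 9.41 TPM in siCTR and at 5.999, 6.89 and 6.87 TPM in siCEP20 (-0.30, adjusted p = 0.0607), chosen after its values were seen.

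Of the early TGF-beta genes beside KLF10 and KLF11, 6 of 6 were tested and 1 was called higher. Of all tested genes, 11.2% were called higher and 4.61% lower. PMEPA1, a feedback inhibitor of TGF-beta signalling, rose from 173, 170 and 182 TPM to 284, 310 and 324 TPM (log2 fold change 0.80 ± 0.06, adjusted p = 7.42e-05). The proteins that bind AU-rich elements had 2 of 6 called higher, beside the same share of 11.2%. All 6 were higher at an adjusted p under 0.05 by limma, beside 30.2% of all tested genes. ZFP36L1, which promotes decay of such mRNAs, rose from 122, 134 and 143 TPM to 303, 319 and 374 TPM (log2 fold change 1.31 ± 0.09, adjusted p = 5.22e-05), and its relative ZFP36 rose by 0.74 ± 0.11 on the log2 scale (adjusted p = 0.00127). Of the cofactors of KLF proteins, 1 of 9 was called, the acetyltransferase gene CREBBP (0.71 ± 0.08, adjusted p = 0.000261). This is close to the share of all tested genes, and nothing is read from it about the cofactors. Of the 8 ubiquitin ligases and deubiquitinase that act on KLF proteins, 0 were called by limma, beside 11.2% of all tested genes called higher and 4.61% lower. At an adjusted p under 0.05, with the fold under 1.5, 2 were higher, beside 30.2% of all tested genes. The same number were higher at an unadjusted p under 0.05, beside 5293 of the 14778 tested genes. Nothing is read from these counts about the ligases and deubiquitinase. VHL and ITCH, the most abundant, had log2 fold changes of -0.05 and 0.37.

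**Figure D4:**
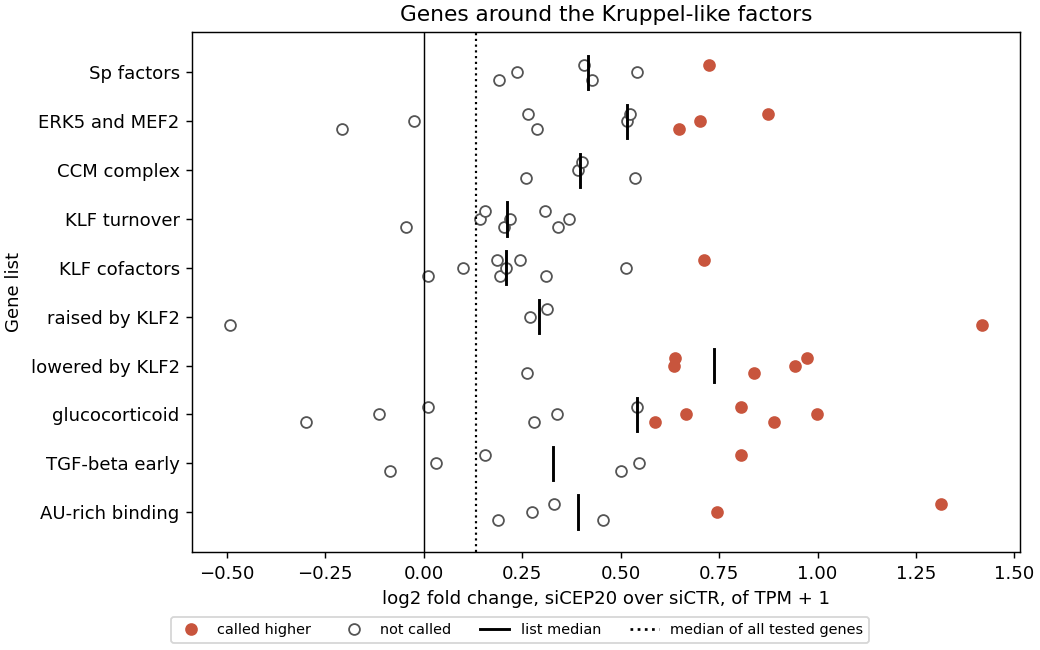
Log2 fold change of TPM + 1, siCEP20 over siCTR, of the tested genes in each list around the KLF factors. Filled points were called higher, open points were not called, black bars are list medians and the dotted line is the median of all tested genes at 0.13. THBD at 1.42 is the point farthest to the right.

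The size of the changes depended on how libraries were scaled. When libraries were scaled by the median of ratios, the median of all genes moved from 0.13 to 9.42e-05 and 6 of the 10 KLF genes were called higher, without KLF4, beside 6.05% of all tested genes. Once length and GC trends had been removed from each library, 4 were called, KLF2, KLF6, KLF10 and KLF11, beside 6.05% of all tested genes. Over the 15 alternatives that left the fold thresholds unchanged, the log2 fold change of KLF2 ran from 2.02 to 2.29. That of KLF6 ran from 0.94 to 1.28. Of the 10 genes, 9 had a positive log2 fold change under each alternative, while that of KLF9 was below 0 in 5 of its 14 alternatives. Among the listed genes the call of NR3C1 held in 8 of 15 alternatives, at log2 fold changes of 0.53 to 0.66 with a library left out. It was lost without siCTR replicate 1 or 2 or siCEP20 replicate 1 or 2. Median-of-ratios scaling, quantile normalization and the length and GC correction also removed it, the last at 0.34. The call of IL6 (10 of 15 alternatives, 0.50 to 0.81 with a library left out) was lost without siCTR replicate 1 or siCEP20 replicate 3. It was also lost with median-of-ratios scaling, quantile normalization or no filter on TPM. That of MEF2A (11 of 15, 0.56 to 0.70 with a library left out) was lost without siCTR replicate 1. Median-of-ratios scaling, quantile normalization and the length and GC correction removed it as well. CREBBP was called in 12 of 15, MEF2D and ERRFI1 in 13 of 15, SP9 in 13 of 14 and CCL2 in 14 of 15.

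**Figure D5:**
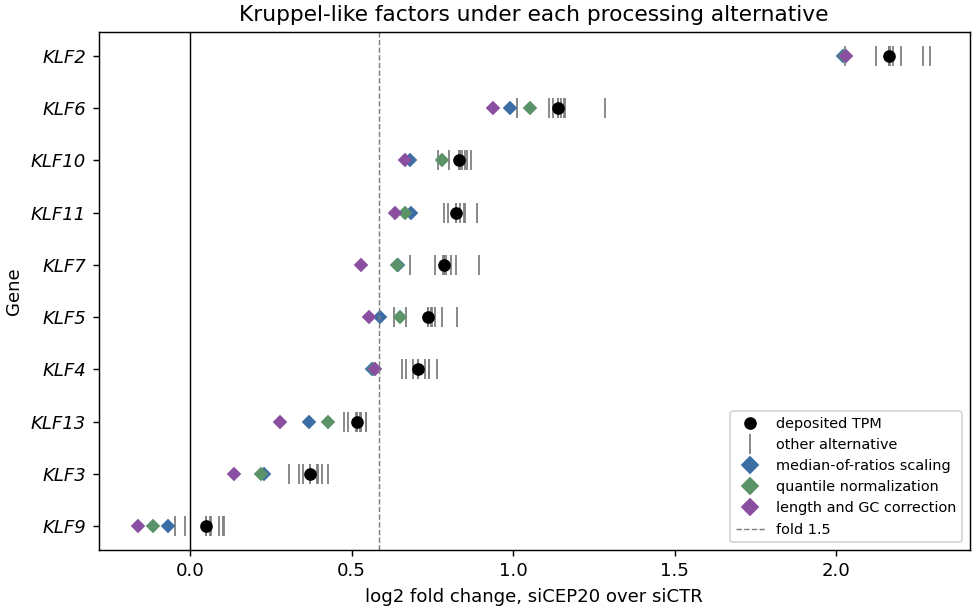
Log2 fold change, siCEP20 over siCTR, of each KLF gene with the deposited TPM (black), under 3 other scalings (diamonds) and under the other alternatives (grey ticks). The diamonds lie to the left of the black points, and KLF4, KLF5 and KLF7 cross the fold of 1.5 after the length and GC correction.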

How the data were processed

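RNA-seq of 3 siCEP20 and 3 siCTR samples of A549 was analysed. The authors trimmed reads with fastp 0.20.1, aligned them to hg38 with HISAT2 2.1.0, quantified genes with StringTie 2.0 and deposited TPM per Ensembl gene. The annotation release is not given in the sources used here. The methods describe strand-marked libraries, and whether quantification used strand is not given there. TPM keeps no depth, so precision rests on the 3 replicates. The authors' differential test was made with DESeq2, and read counts were not used here.

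Genes were named and placed with GENCODE 44, which matched 60370 of the 60624 IDs. The 14778 genes averaging 1 TPM or more were tested on log2(TPM + 1) by limma 3.58.1 (R 4.3.3) with a mean-variance trend and without covariates, using Benjamini-Hochberg adjustment over all of them. This scale understates fold changes of low genes. On simulated data, 175 of 197 changed genes were called, and 7 unchanged genes were. The changed genes there had a log2 change of 1 or 2 in either direction. These counts describe those data alone. How often a gene with a fold near 1.5 would be called in the libraries was not tested. The KLF genes and the lists were chosen with earlier results of these data known. The genes named were the 10 KLF genes, CEP20, in each list the called genes (up to 6) or else the 2 most abundant, the 5 nearest to KLF2 by Euclidean distance, neighbours within 5 kb and the rest of the KLF family. Some listed genes are counted in their list and are not reported here by name. Alternatives tried were quantile normalization, scaling by the median of ratios, a loess correction (span 0.5) for length and GC content, a replicate block, a pseudocount of 0.1, filters at 0 or 5 TPM, no variance trend, protein-coding genes alone, other fold thresholds and leaving out each library. Promoters were read from RefSeq, and Python 3.11.15, pandas 2.3.3 and matplotlib 3.10.9 were used.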

Additional observations from a re-analysis of the deposited data

How the results depend on the processing

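KLF2 and CEP20 kept their direction and their call under all 15 alternatives that left the fold thresholds unchanged. At a fold of at least 2, KLF2 stayed called, while CEP20, at a log2 fold change of -0.92, did not reach that fold. KLF2 ran from 2.03 to 2.29 and CEP20 from -0.97 to -0.84 with a library left out, and the 7 calls of KLF genes held in each of these, while the count of all genes called higher ran from 1381 to 1905, of all called lower from 613 to 706 and of listed genes called higher from 15 to 23. KLF genes called higher numbered 4 after the length and GC correction and 2 at a fold of at least 2, beside 7. All genes called higher numbered 894 with median-of-ratios scaling, 923 with quantile normalization, 892 after the length and GC correction, 4457 with no fold threshold and 261 at a fold of at least 2, beside 1659. All genes called lower numbered 1103 with median-of-ratios scaling, 1944 with no fold threshold and 147 at a fold of at least 2, beside 682. Calls higher were 70.9% of all calls and 44.8% with median-of-ratios scaling, 47.6% with quantile normalization and 50.5% after the length and GC correction. Listed genes called higher numbered 12 with median-of-ratios scaling, 39 with no fold threshold and 2 at a fold of at least 2, beside 19, and listed genes called lower numbered 1 with median-of-ratios scaling and 1 with no fold threshold, beside 0. KLF9 was at -0.067 with median-of-ratios scaling, -0.11 with quantile normalization, -0.16 after the length and GC correction, and from -0.046 to 0.11 with a library left out, below 0 without siCTR replicate 2 (-0.016) or siCEP20 replicate 3. The causes were not tested.

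Same-numbered libraries had correlations of 0.157, -0.0614 and -0.0623 in their deviations from group means. Those of libraries with different numbers ran from -0.121 to 0.170. With 3 libraries per group these values cannot settle whether the replicate numbers pair the libraries. With a replicate block, KLF2 stayed at 2.16 and CEP20 at -0.92, 7 KLF genes were called higher and 0 lower, 19 listed genes higher and 0 lower, and 1654 genes were called higher and 694 lower.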
